A study of Homo sapiens with 8 samples.

Results

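The TAL1 core regulatory complex was followed as 10 genes of the 63677 in the deposited count tables: TAL1, LYL1, LMO1, LMO2, LDB1, TCF3, TCF12, GATA3, RUNX1 and MYB. They were taken by gene symbol from a list of known members of this transcription factor circuit. The list was chosen with earlier results of these data known. Total RNA was sequenced from MOLT-4 and DND-41, human cell lines long established from T-cell acute lymphoblastic leukaemia (T-ALL), with each line exposed for 24 h to 100 nM ACBI-1 or to DMSO, its solvent. ACBI-1 is a degrader that links the chromatin remodelling ATPases SMARCA2 and SMARCA4, and PBRM1, to the VHL ubiquitin ligase, so it acts on proteins and no transcript level checks its labels. Each of the 4 groups (MOLT-4 DMSO, MOLT-4 ACBI-1, DND-41 DMSO and DND-41 ACBI-1) had 2 libraries, and the labels do not say whether these came from separate cultures, so p-values measure the spread between libraries only. Each line is a single model, and line, run and count table cannot be told apart.

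TAL1 is a basic helix-loop-helix (bHLH) factor of blood stem cells, red cells and platelets that is switched off in normal thymocytes and switched on in one class of T-ALL. It binds DNA as a dimer with an E protein (TCF3 or TCF12), and an LMO adaptor with LDB1 joins that dimer to GATA3, with RUNX1 and MYB binding nearby. The complex is known to maintain the expression of its own genes in leukaemic T cells, and Id proteins counter it by taking up E proteins in dimers that cannot bind DNA.

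The treatment labels of the DND-41 libraries are in doubt. In MOLT-4, the 2 libraries of a group differed by 1.56 and 2.85 times the counting noise (a chi-square divided by its degrees of freedom), and a DMSO and an ACBI-1 library by 55.7 to 57.0. In DND-41, the pairs with the same replicate number, 1 labelled ACBI-1 and the other DMSO, differed by 5.53 and 6.001, and all other pairs by 70.2 to 84.1. The authors' deposited DND-41 table equalled the libraries numbered 2 over those numbered 1 in 100% of 10389 genes, within 0.05 on the log2 scale. It equalled the labelled comparison in 10.3% of them. No source used here says whether the counts or the deposited comparison have the treatments right, so both are given and no direction with ACBI-1 is read in DND-41. Totals were 21308737 to 22067644 counts per library.

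Promoter sequence is shown for TAL1 and GATA3 because both fell with ACBI-1 in MOLT-4 and both are bound by the complex in the known circuit. The windows are the 250 bases before a RefSeq transcript start on GRCh38.p14, which is the reference and not the sequence of these lines, and they are read 5′ to 3′ on the gene's strand. The first TAL1 window is chr1:47231716-47231965 and the second TAL1 window is chr1:47232336-47232585 (both minus strand). GATA3 has several windows, and the one shown is chr10:8054438-8054687 (plus strand). Capitals mark matches on either strand to the E-box, searched as CANNTG, to the motif of GATA factors, searched as GATAA, to that of RUNX factors, searched as TGTGGT, and to that of MYB, searched as AACNGC. No matches overlap in these windows.
TAL1, first window: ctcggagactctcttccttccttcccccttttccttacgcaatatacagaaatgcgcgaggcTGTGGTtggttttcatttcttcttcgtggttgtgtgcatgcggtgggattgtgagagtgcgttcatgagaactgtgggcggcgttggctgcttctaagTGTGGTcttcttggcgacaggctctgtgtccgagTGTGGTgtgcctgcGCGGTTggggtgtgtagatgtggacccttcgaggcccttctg
TAL1, second window: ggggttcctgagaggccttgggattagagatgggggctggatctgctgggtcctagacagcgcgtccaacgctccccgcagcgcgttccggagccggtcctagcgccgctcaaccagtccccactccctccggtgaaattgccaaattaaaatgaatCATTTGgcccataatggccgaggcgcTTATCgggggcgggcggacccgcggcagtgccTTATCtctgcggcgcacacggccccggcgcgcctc
GATA3: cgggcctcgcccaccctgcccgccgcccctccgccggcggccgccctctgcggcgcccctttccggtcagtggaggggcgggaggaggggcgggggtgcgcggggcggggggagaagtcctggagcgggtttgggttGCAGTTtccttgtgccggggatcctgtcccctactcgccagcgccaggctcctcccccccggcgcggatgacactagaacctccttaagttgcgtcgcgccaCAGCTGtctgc
The first TAL1 window held 3 RUNX and 1 MYB match, and the second held 1 E-box and 2 GATA matches. In the GATA3 window shown there were 1 E-box and 1 MYB match. The other GATA3 windows differed: that at chr10:8050986-8051235 held 2 E-box and 1 RUNX match, and that at chr10:8053391-8053640 held none. Those at chr10:8045083-8045332 and chr10:8049604-8049853 held 2 and 1 MYB matches, and that at chr10:8060207-8060456 held 1 GATA and 1 MYB match. LMO2, which also fell in MOLT-4, had no window in RefSeq's table. Over the 19 windows of the 9 members found there, 5 held an E-box, 3 a GATA, 2 a RUNX and 6 a MYB match. Among all 35116 windows of the same length the shares were 61.8%, 20.4%, 11% and 30.5%. The matches describe letters only and were not tested as sites.

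The level of each gene was compared with the others per length, in RPKM (reads scaled to exon length and library size). In MOLT-4 with DMSO, MYB (116 ± 3.33 RPKM, SD, n = 2) and TCF3 (113 ± 2.48) were highest and overlapped. LDB1 (49.7 ± 1.22), RUNX1 (36.2 ± 1.05) and GATA3 (23.0 ± 0.786) followed without overlap. TAL1 (20.4 ± 0.381) and TCF12 (20.03 ± 0.165) overlapped, LMO2 was lower at 2.47 ± 0.106, LYL1 was near 0 at 0.0398 ± 0.0338, and LMO1 had 0 counts. So the transcripts of the line-specific members, TAL1 and LMO2, were below those of the broadly expressed scaffold and E protein TCF3.

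**Figure D1:**
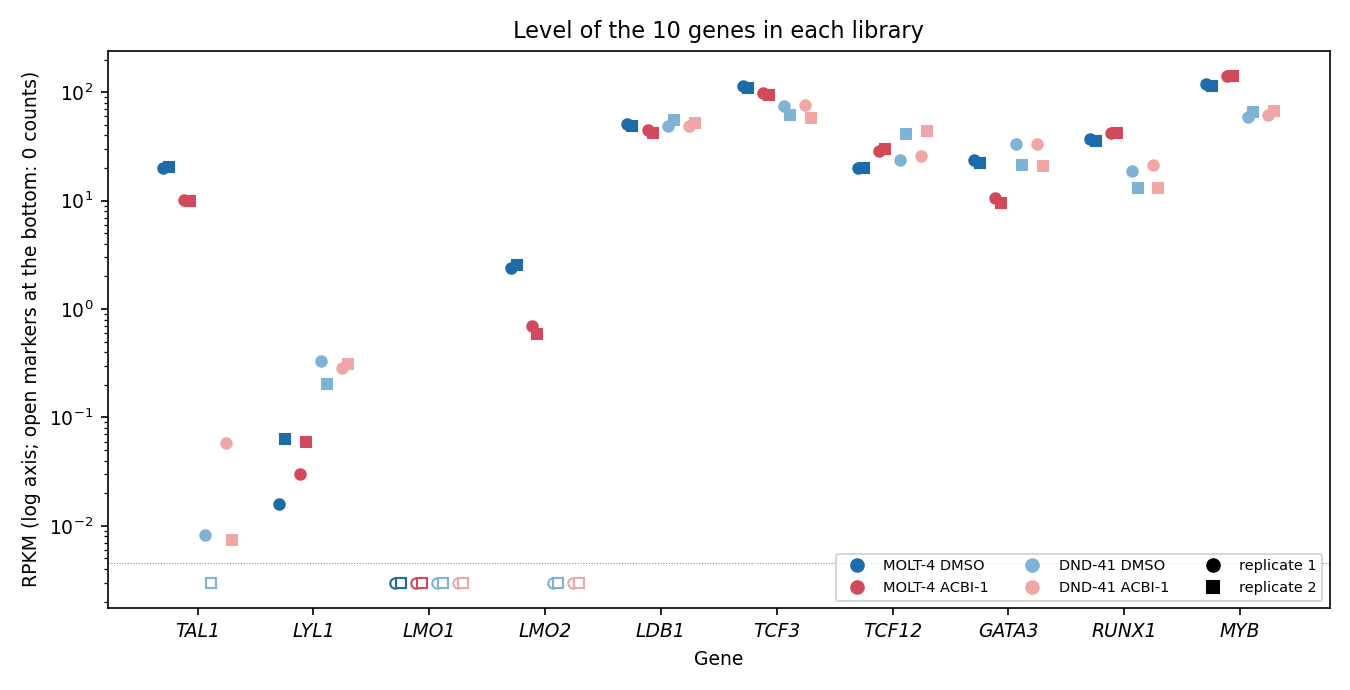
RPKM (log axis) of the 10 genes in each of the 8 libraries, colour by group and shape by replicate number; open markers at the bottom are libraries with 0 counts. TAL1 and LMO2 are at or near 0 in DND-41 and higher in MOLT-4, where LMO2 reaches only 0.594 to 2.54 RPKM. LMO1 is at 0 in every library, and the other members except LYL1 lie above 9 RPKM in all of them.

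In MOLT-4, ACBI-1 lowered TAL1, LMO2 and GATA3 by 2-fold or more, lowered LDB1 and TCF3 slightly, and raised TCF12, MYB and RUNX1. LYL1 and LMO1 had too few counts to be tested. All 8 members tested passed (3 higher, 5 lower; edgeR quasi-likelihood test, adjusted p below 0.05), beside 58.4% of the 14618 genes tested in that line (28.2% higher, 30.2% lower). Among the 4758 genes with a mean of at least 50 CPM (counts scaled to library size), which include 7 of these 8 members, 72.3% passed. The median log2 fold change of the 8 members was -0.20, against 0.01 over all genes tested.

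TAL1 itself had 115 and 118 CPM in the DMSO libraries of MOLT-4 and 57.3 and 56.6 CPM in the ACBI-1 libraries. Both treated libraries lay at about the same level and well under both controls. TAL1 was thus 2.04-fold lower with ACBI-1 (log2 fold change -1.03, SE 0.0468, adjusted p = 1.00e-22, edgeR). In these bulk samples, fewer cells of a type and less RNA per cell cannot be told apart. An antisense gene at the TAL1 locus held 0.182% as many counts as TAL1 in MOLT-4.

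LYL1, the closest relative of TAL1, was nearly silent in MOLT-4, with 1 and 4 counts under DMSO and 2 and 4 under ACBI-1. Its groups overlapped, and no change could be detected at this depth.

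Among the LMO adaptors, which bridge TAL1 and GATA factors, LMO2 had 7.43 and 7.90 CPM (150 and 159 counts) with DMSO and 2.19 and 1.85 CPM (47 and 40 counts) with ACBI-1. The groups were far apart, and LMO2 fell the most of the 8 members tested, by 3.79-fold (log2 fold change -1.92, SE 0.170, adjusted p = 3.39e-13, edgeR). LMO1 had 0 counts in all 8 libraries, which allows up to 0.149 CPM in a single MOLT-4 DMSO library for counting error alone. LMO4, a family member outside the leukaemic complex, did not pass (log2 -0.04, adjusted p = 0.755, edgeR). LMO2 made up 52.2% and 56.4% of the summed RPKM of LMO1 to LMO4 with DMSO, while with ACBI-1 LMO4 made up 74.9% and 76.6%.

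LDB1, the scaffold that binds LMO proteins and joins distant elements, had 141 and 136 CPM with DMSO and 125 and 117 CPM with ACBI-1. Its fall was the smallest of the 8 (log2 fold change -0.19, SE 0.0423, adjusted p = 1.38e-04, edgeR). It did not pass when libraries were scaled by total counts (log2 -0.07, adjusted p = 0.126), a scaling that moved the median of all genes from 0.01 to 0.13.

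The E proteins moved in opposite directions. TCF3 had 695 and 674 CPM with DMSO and 604 and 579 CPM with ACBI-1, lower by a log2 value of -0.21 (SE 0.0351, adjusted p = 2.12e-06, edgeR). TCF12 had 190.3 and 188 CPM with DMSO and rose to 269 and 282 CPM, higher by a log2 value of 0.55 (SE 0.0375, adjusted p = 1.32e-16, edgeR). Neither gene's groups overlapped. The ratio of TCF3 to TCF12 (RPKM) was 5.67 and 5.57 with DMSO and 3.48 and 3.19 with ACBI-1, while the sum of TCF3, TCF12 and TCF4 changed little, from 135 and 132 to 129 and 126 RPKM. Summed E-protein RPKM per TAL1 RPKM rose from 6.72 and 6.37 to 12.8 and 12.7, with no overlap.

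GATA3, a factor of T-cell development that joins the complex through LMO2, had 81.0 and 77.2 CPM with DMSO and 36.1 and 32.5 CPM with ACBI-1. Both treated libraries were under both controls, and the fall was 2.30-fold (log2 fold change -1.20, SE 0.0569, adjusted p = 3.54e-22, edgeR). GATA3 made up at least 98.7% of the summed RPKM of GATA1, GATA2 and GATA3 in every MOLT-4 library. With ACBI-1 GATA3 (9.97 ± 0.735 RPKM, SD, n = 2) and TAL1 (10.0 ± 0.0827) overlapped, whereas with DMSO GATA3 lay above TAL1.

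RUNX1 and MYB, which bind beside the bHLH dimer, rose modestly. RUNX1 had 576 and 553 CPM with DMSO and 661 and 657 CPM with ACBI-1 (log2 fold change 0.23, SE 0.0348, adjusted p = 3.85e-07, edgeR). MYB had 651 and 625 CPM with DMSO and 776 CPM in both ACBI-1 libraries (log2 fold change 0.28, SE 0.0347, adjusted p = 2.20e-09, edgeR). The higher group was clear of the lower in both genes. CBFB, the partner that RUNX1 needs to bind DNA well, fell from 176 and 171 to 90.6 and 90.9 CPM (log2 -0.93, adjusted p = 4.11e-23, edgeR), and RUNX1 per CBFB (RPKM) went from 0.867 and 0.856 to 1.93 and 1.92.

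When the spread was estimated over all 8 libraries, DND-41 included, the MOLT-4 fold changes were nearly the same but of the 8 members only LMO2 passed (adjusted p = 0.0323), beside 3.39% of 16047 genes. TAL1 then had an adjusted p of 0.0905, GATA3 of 0.0807 and CBFB of 0.115 by the same edgeR fit. Of 21 partners, cofactors, targets and neighbours that passed in the MOLT-4 fit and are described singly, 15 did not pass in this one, while ID2, CBFA2T3, ERG, GIMAP1, GIMAP5 and PTCRA did.

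**Figure D2:**
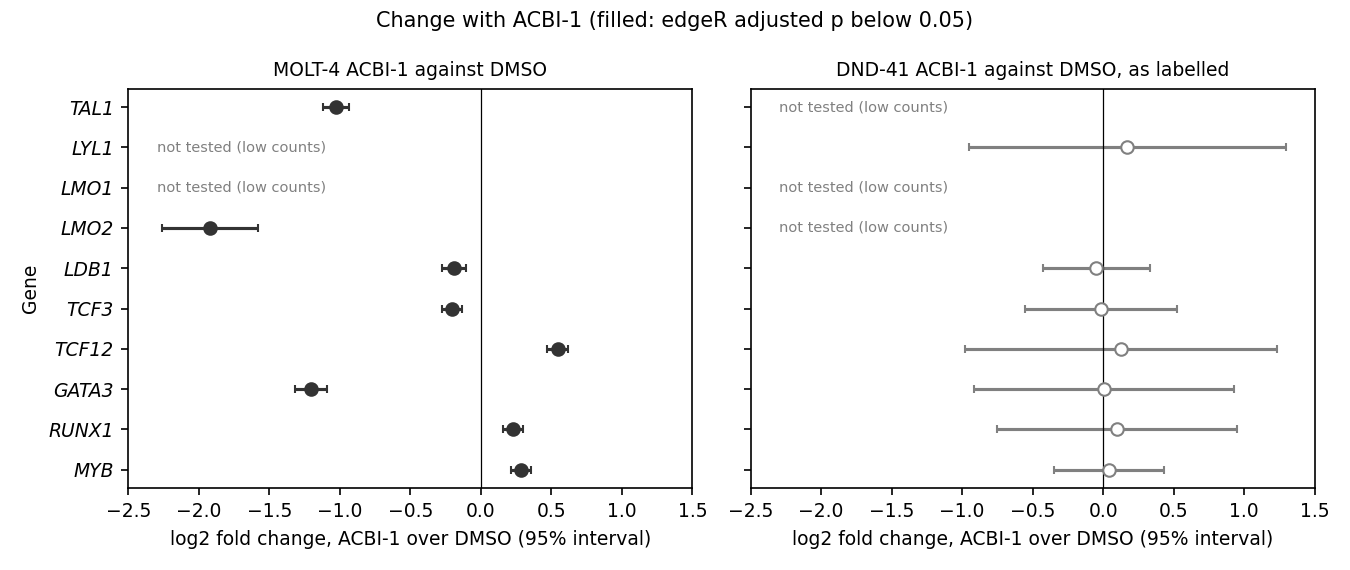
Log2 fold change of each member with ACBI-1 and its 95% interval by edgeR, in MOLT-4 (left) and in DND-41 as labelled (right); filled points passed an adjusted p of 0.05 and genes with too few counts are marked as not tested. In MOLT-4 LMO2, GATA3 and TAL1 lie furthest to the left and TCF12 furthest to the right; in DND-41 every interval includes 0.

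In DND-41 the transcripts of TAL1 and LMO2 were at or near 0. TAL1 had 1 and 0 counts in the libraries labelled DMSO and 7 and 1 in those labelled ACBI-1. LMO2 and LMO1 had 0 counts in all 4 libraries, which allows up to 0.134 CPM in a single library, averaged over either pair. LYL1 was low, with 22 and 15 counts under DMSO and 19 and 23 under ACBI-1, and its groups overlapped. The other 6 members were all expressed, in the order TCF3 (68.4 ± 8.54 RPKM with DMSO, SD, n = 2), MYB (62.5 ± 4.57), LDB1 (52.3 ± 4.06), TCF12 (32.5 ± 12.3), GATA3 (27.2 ± 8.54) and RUNX1 (16.1 ± 4.08), where TCF3 overlapped MYB and TCF12 overlapped GATA3.

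As labelled, none of the 7 members tested in DND-41 passed, beside 0% of 14602 genes (edgeR and DESeq2 each called 0, and 37 genes had an unadjusted edgeR p below 0.05, none a member). The log2 fold changes ran from -0.05 for LDB1 to 0.17 for LYL1, every adjusted p was 0.999982 by edgeR, and the 95% intervals were wide. For GATA3 the interval of the log2 fold change ran from -0.92 to 0.93, and for TCF12 from -0.98 to 1.23.

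The members expressed in DND-41, except LYL1, separated by replicate number instead, as the libraries did over all genes. GATA3 had 114 CPM in the DMSO library and 115 CPM in the ACBI-1 library numbered 1, and 72.6 and 71.6 CPM in those numbered 2. TCF12 had 225 (DMSO) and 246 CPM (ACBI-1) in the libraries numbered 1, and 389.6 and 419 CPM in those numbered 2. RUNX1 had 295 and 329.8 CPM in number 1 and 205 CPM in both libraries of number 2. In each of these genes the libraries of 1 number lay together and the labelled treatments overlapped.
TCF3 had 453 and 467 CPM in number 1 against 379 and 354 CPM in number 2. MYB had 325 (DMSO) and 338 CPM (ACBI-1) in number 1 against 361 and 366 CPM in number 2, and LDB1 had 138 and 135 CPM against 154 and 146 CPM. These 3 genes also separated by number, over smaller distances. LYL1 did not, with 22 and 19 counts in number 1 and 15 and 23 counts in number 2. The share of all genes that separate by number was not counted, so the separation is not read as a trait of the members.

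The authors' deposited DND-41 table, which holds number 2 over number 1, passed 4 of the 7 members that have an adjusted p there (1 higher, 3 lower), beside 36.8% of 14883 genes (15.2% higher, 21.6% lower). In that table TCF12 was higher (log2 fold change 0.76, SE 0.0808, DESeq2 adjusted p = 1.13e-19). GATA3 (-0.69, adjusted p = 6.79e-13), RUNX1 (-0.62, adjusted p = 7.68e-13) and TCF3 (-0.34, adjusted p = 4.39e-05) were lower by the authors' deposited table. MYB (0.12, adjusted p = 0.207), LDB1 (0.12, adjusted p = 0.292) and LYL1 (-0.27, adjusted p = 0.803) did not pass there. In the authors' deposited MOLT-4 table, the log2 values of the same genes were 0.53 for TCF12, -1.22 for GATA3, 0.21 for RUNX1, -0.22 for TCF3, 0.27 for MYB and -0.20 for LDB1, and 8 of 8 members passed (3 higher, 5 lower) beside 35.1% of 16234 genes (14.7% higher, 20.3% lower). Thus RUNX1 was higher in the one deposited table and lower in the other, while TCF12, GATA3 and TCF3 had the same sign in both, with the sign of the DND-41 table relative to ACBI-1 not known.

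**Figure D3:**
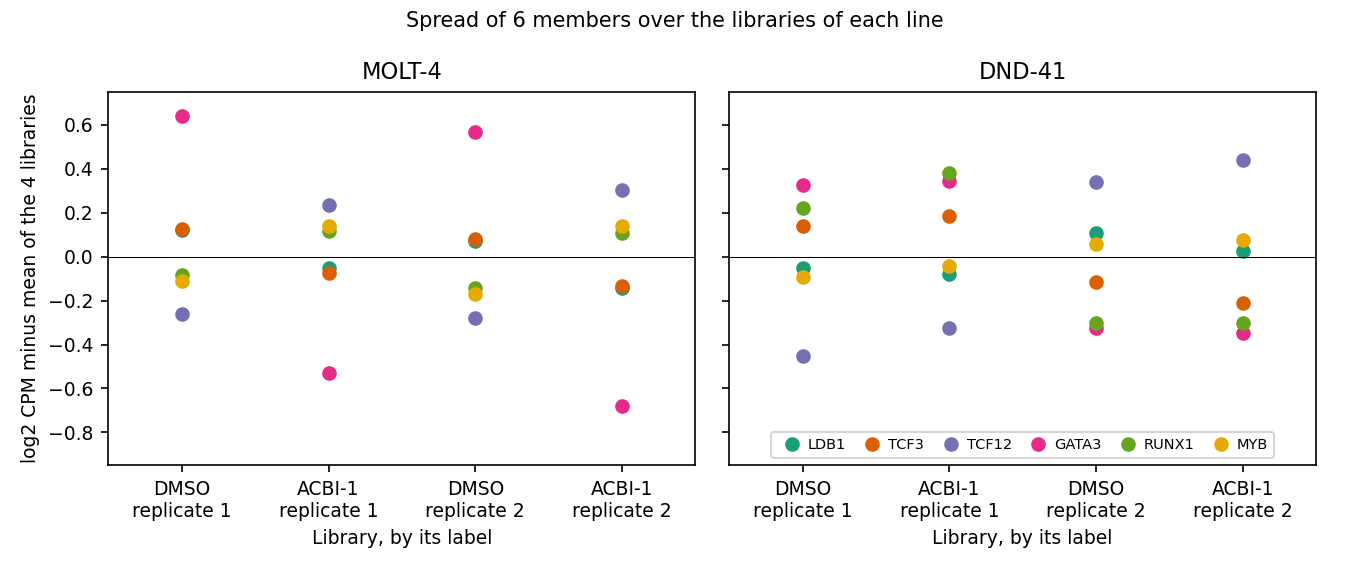
Log2 CPM of 6 members minus each gene's mean over the 4 libraries of its line, by library label. In MOLT-4 the DMSO libraries resemble each other and differ from the ACBI-1 libraries; in DND-41 the libraries with the same replicate number resemble each other whatever their treatment label.

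The difference between the lines' responses, tested with an interaction term and the libraries as labelled, passed for none of the 9 members tested, beside 0.393% of 16047 genes (edgeR). For GATA3 the difference, MOLT-4 minus DND-41, was -1.21 on the log2 scale (95% interval -2.16 to -0.26, adjusted p = 0.366), and for TCF12 0.43 (-0.64 to 1.497, adjusted p = 0.766). For MYB it was 0.25 (-0.07 to 0.56, adjusted p = 0.592) and for RUNX1 0.13 (-0.72 to 0.98, adjusted p = 0.926). With a block for replicate number, TCF12 and MYB passed as higher and TAL1, TCF3 and GATA3 as lower, beside 2767 genes higher and 3093 lower. The replicate numbers were not taken as pairs, and the DND-41 labels are in doubt. The estimates of TAL1, LYL1 and LMO2 rest on near-empty libraries of one line and are not interpreted in either fit.

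Without compound, TAL1, LMO2, TCF3, RUNX1 and MYB were higher and LYL1 was lower in MOLT-4 than in DND-41 (DMSO libraries; 6 of 9 members tested passed, beside 35.1% of 15069 genes, 17.7% higher and 17.4% lower; edgeR). TAL1 had 4688 counts over both MOLT-4 DMSO libraries and 1 over both DND-41 DMSO libraries, a ratio of 5206 with an exact 95% counting interval of 934 to 205659 (adjusted p = 6.94e-04). Over all 4 libraries a line the counts were 7146 and 9, a ratio of 853 (449 to 1867). LMO2 had 309 counts in MOLT-4 against 0, with a lower bound of 92.5-fold by the exact 95% counting interval (adjusted p = 0.00288, edgeR). Taking 3 counts over the group as the floor, LMO2 was 114-fold higher. So TAL1 and LMO2 transcripts were nearly confined to MOLT-4, a line known beforehand to be TAL1-positive. Genes outside the circuit, such as KRBA1 and PLEKHG4, also differed in this way.
LYL1 went the other way, 6.66-fold higher in DND-41 (5 against 37 counts, exact 95% counting interval 2.61 to 21.7, edgeR adjusted p = 0.0370). LYL1 did not pass with DESeq2 (adjusted p = 0.0798), nor without a low-count filter, nor without either MOLT-4 DMSO library.
TCF3 was higher in MOLT-4 by 0.71 on the log2 scale (SE 0.127, adjusted p = 0.0183, edgeR), RUNX1 by 1.16 (SE 0.200, adjusted p = 0.0166) and MYB by 0.88 (SE 0.108, adjusted p = 0.00756). Leaving out MOLT-4 DMSO replicate 1 ended the calls of TCF3 (adjusted p = 0.192), RUNX1 (0.0509) and MYB (0.0955), and leaving out replicate 2 ended those of TCF3 (0.160) and MYB (0.0740). TCF12 (-0.71, adjusted p = 0.117), GATA3 (-0.25, adjusted p = 0.442) and LDB1 (-0.09, adjusted p = 0.547) did not pass by edgeR. Without either DND-41 DMSO library in turn, TCF12 passed (adjusted p = 9.19e-05 and 0.00149). Among the fits that left out 1 library, GATA3 passed without DND-41 DMSO replicate 2 (log2 -0.55, adjusted p = 5.48e-04) and LDB1 without replicate 1 (log2 -0.14, adjusted p = 0.0247). GATA3 also passed when all 8 libraries were fitted with line and treatment (log2 -0.84, adjusted p = 0.0433, edgeR). That fit includes the ACBI-1 libraries, in which GATA3 was 2.30-fold lower in MOLT-4, so it is no comparison without compound.

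Markers of the lines were in place: all 8 T-cell markers (CD2, CD3D, CD3E, CD3G, CD5, CD7, CD1A, CD1B) were above 1 CPM in every group. TLX3, the homeobox factor of another class of T-ALL, had 0 counts in MOLT-4. It was at least 2571-fold higher in DND-41 with DMSO, taking 3 counts over the group as the floor. Of 7 markers of red cells and platelets, where TAL1 is also active, only EPOR was above 1 CPM, and HBB, HBG1, PF4 and GP9 had 0 counts in MOLT-4. None of 6 myeloid markers was above 1 CPM in any group. Of the 5 B-cell markers, MS4A1 had 0 counts in every library and PAX5 at most 0.0468 CPM, while CD79A ran from 177 to 735 CPM in DND-41 and up to 4.57 CPM in MOLT-4.

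The other genes of the pathway were taken from lists of E-protein antagonists, relatives and partners, cofactors, targets and chromosomal neighbours, 58 genes in all, and their counts are to be read beside the same 58.4% of genes that passed in MOLT-4. Of the 4 E-protein and Id genes tested, 3 rose with ACBI-1, 0 fell and 1 did not pass (median log2 1.06, against 0.01 over all genes). ID3, an inhibitor that takes up E proteins, had 37.8 and 40.4 CPM with DMSO and 166 and 167 CPM with ACBI-1 in MOLT-4 (log2 fold change 2.09, SE 0.0483, adjusted p = 1.03e-33, edgeR; adjusted p = 0.184 with the spread shared over 8 libraries). ID2 rose from 2.33 and 1.84 to 6.33 and 6.10 CPM (log2 1.58, adjusted p = 3.63e-10), and TCF4, the third E protein, by 0.55 (adjusted p = 3.04e-09, edgeR). ID1 did not pass (log2 0.21, adjusted p = 0.0799), and ID4 was not tested. Summed over ID1 to ID4, the Id transcripts had 31.6 and 32.2 RPKM with DMSO and 107 and 106 RPKM with ACBI-1. In DND-41 the sum was 42.3 (DMSO) and 37.2 RPKM (ACBI-1) in the libraries numbered 1, and 98.2 and 91.7 RPKM in those numbered 2.

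**Figure D4:**
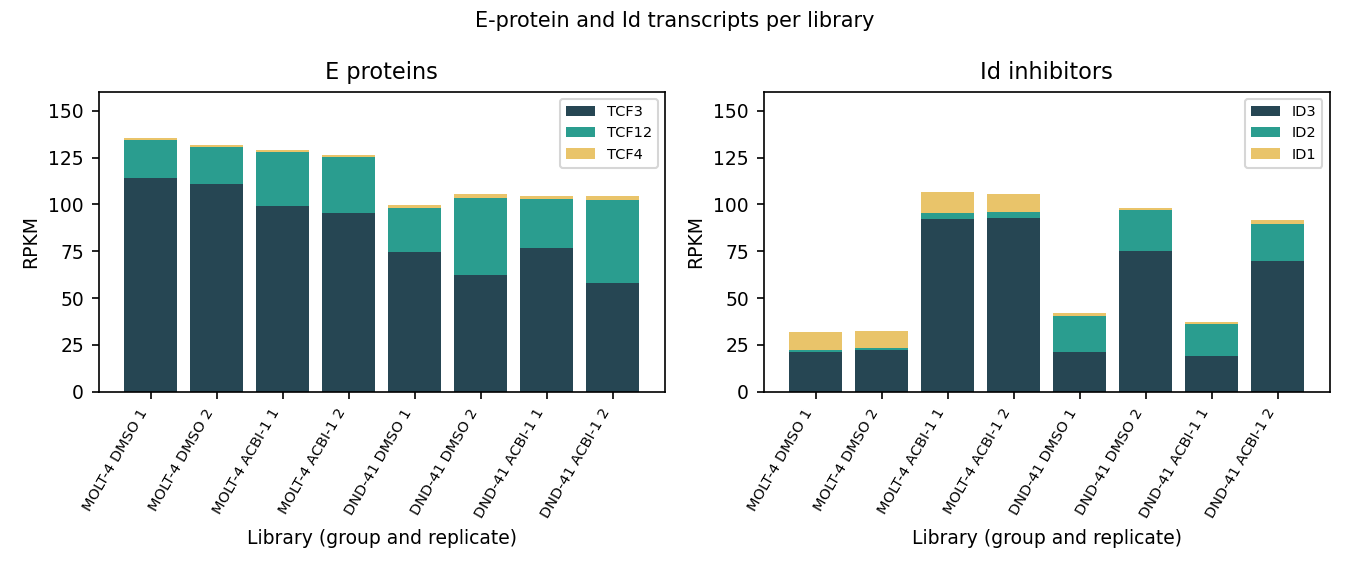
Stacked RPKM of the E proteins TCF3, TCF12 and TCF4 (left) and of the Id genes ID3, ID2 and ID1 (right) in each library, on the same axis from 0; ID4, at most 1 count, is not drawn. The E-protein total is similar within each line, while the Id total is over 100 RPKM with ACBI-1 and about 32 RPKM with DMSO in MOLT-4, and differs by replicate number in DND-41.

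Relatives and scaffold partners of the members split: of 8 tested, 4 rose, 2 fell and 2 did not pass (median log2 0.09). CBFB and SSBP2, a single-strand DNA binding protein that steadies LDB1, fell (SSBP2 log2 -0.57, adjusted p = 1.03e-14, edgeR). SSBP3 (0.28) and RLIM (0.27), a ubiquitin ligase that targets LDB1 and LMO proteins, rose. MRPL37 on the opposite strand held 52.6% as many counts as SSBP3 in MOLT-4, so the counts of SSBP3 are uncertain. Among 9 corepressors and coactivators, 4 rose, 4 fell and 1 did not pass (median log2 -0.01). CBFA2T3, a corepressor of the complex also called ETO2, fell from 87.7 and 90.6 to 49.0 and 45.5 CPM (log2 -0.91, adjusted p = 1.80e-19, edgeR). The histone demethylase KDM1A also fell (-0.25), while RCOR1 (0.42), its partner, and the acetyltransferase CREBBP (0.41) rose.

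Genes that the complex is known to switch on in T-ALL mostly fell in MOLT-4: of 14 tested of 15 listed, 13 fell and 1 rose (median log2 -0.95). Among all 14618 genes tested in that line 30.2% fell and 28.2% rose. The list was chosen with earlier results of these data known, so its count is a description and no independent test. With the spread shared over 8 libraries 4 of these 14 targets fell and 1 rose, beside 3.39% of 16047 genes that passed. STAT5A, a cytokine signalling factor, fell from 454 and 440.3 to 198 and 193 CPM (log2 fold change -1.19, SE 0.0365, adjusted p = 3.98e-29, edgeR; 0.365 with the shared spread). GIMAP5 (-2.20, adjusted p = 1.56e-31) and GIMAP1 (-2.16, adjusted p = 2.57e-27), small GTPases of lymphocytes, fell too, and since they share exons on the same strand their counts can have been split in the authors' counting. ERG, an ETS factor, was the exception and rose from 86.5 and 86.4 to 218 and 215 CPM (1.33, adjusted p = 4.42e-29, edgeR). In the same libraries 6 of the 8 T-cell markers also fell and 1 rose, with summed levels of 2361 to 2392 CPM under DMSO and 1739 to 1857 CPM under ACBI-1, and their part in the result was not tested.
In the authors' deposited DND-41 table, 11 of these 15 targets had an adjusted p, of which 2 were higher and 5 lower (median log2 -0.20), beside the 36.8% of 14883 genes that passed there (15.2% higher, 21.6% lower), with number 2 over number 1 as before.

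Of 6 thymocyte genes that E proteins switch on, 2 rose, 2 fell and 2 did not pass in MOLT-4 (median log2 -0.17). PTCRA, which encodes the pre-T-cell receptor chain, fell from 19.7 and 18.4 to 5.12 and 5.78 CPM (log2 -1.80, adjusted p = 1.52e-18, edgeR). GFI1, a repressor, fell too (-0.38, adjusted p = 2.60e-08, edgeR). CD4, the co-receptor of helper T cells, rose from 5.75 and 7.45 to 9.16 and 8.78 CPM (0.45, adjusted p = 0.00271, edgeR). It did not pass in the authors' deposited MOLT-4 table (log2 0.43, DESeq2 adjusted p = 0.132). Leaving out 1 library moved the log2 value of CD4 between 0.27 and 0.64. RAG2, a subunit of the recombinase, rose by 0.28 (adjusted p = 4.88e-05), but RAG1 lies opposite and held 813% as many counts.

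The chromosomal neighbours of TAL1 were mostly silent: 3 of 10 had enough counts in MOLT-4. STIL, a centriole gene next to TAL1, rose (log2 0.33, adjusted p = 1.25e-08) and CMPK1, a nucleotide kinase, fell (-0.36, adjusted p = 4.57e-11), while FOXD2 did not pass (0.43, adjusted p = 0.0609, edgeR). PDZK1IP1, the neighbour on the other side, had at most 0.093 CPM in any library.

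**Figure D5:**
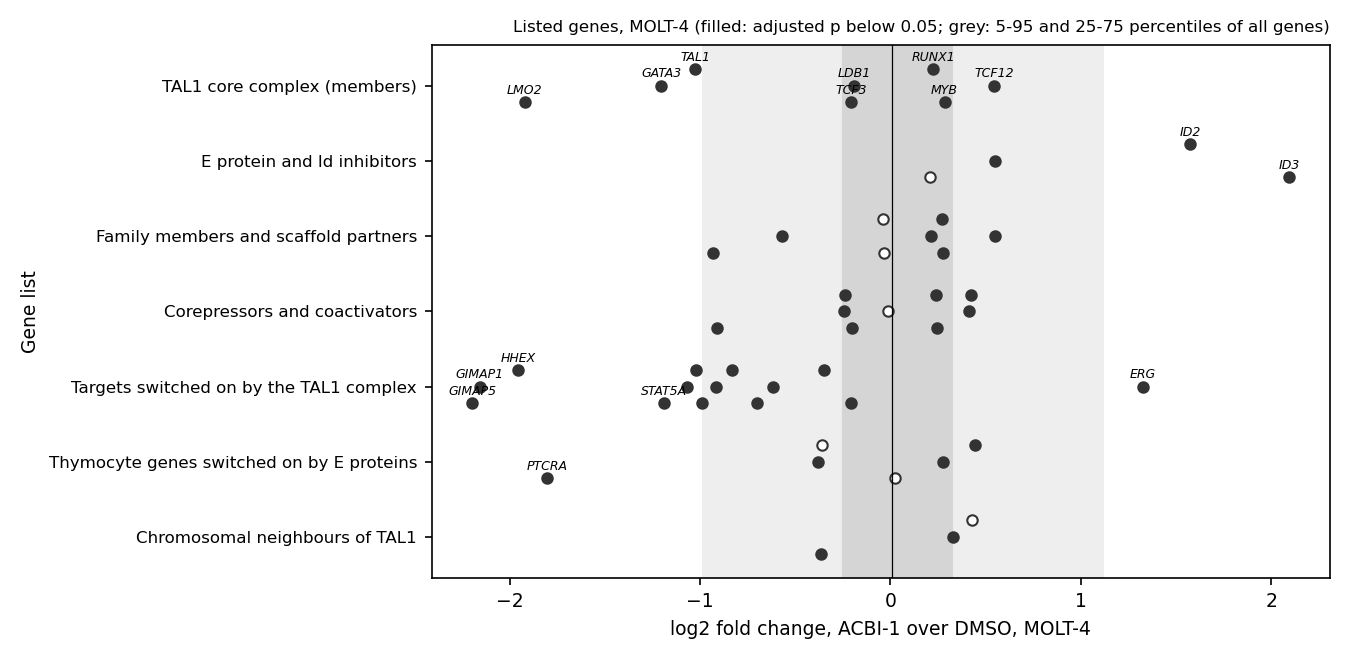
Log2 fold change with ACBI-1 in MOLT-4 of every tested gene of each list; filled points passed an adjusted p of 0.05, and the grey bands give the 5 to 95 and 25 to 75 percentiles of all genes tested. The members lie on both sides of 0, the targets lie to the left except ERG, and ID3 and ID2 lie furthest to the right.

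The genes whose pattern over the 8 libraries was most like that of TAL1, by Euclidean distance of centred log2 CPM (prior count 1) among 10244 protein-coding genes, were NFATC2 (distance 1.09), KRBA1 (1.44), RIN3 (1.58), ST6GAL1 (1.78) and PLEKHG4 (1.82). NFATC2, a calcium-responsive factor of T cells, had means of 48.5 CPM with DMSO and 25.3 CPM with ACBI-1 in MOLT-4, and 0 and 0.070 CPM in DND-41. KRBA1 shared the difference between the lines but had 47.6 and 46.6 CPM in the MOLT-4 groups. With a prior count of 5, 2 of these 5 genes, ST6GAL1 and PLEKHG4, were again among the nearest 5, and NFATC2 was not.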

How the data were processed

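Total RNA of 8 strand-specific paired-end libraries was measured, per the labels' protocols. The submitters' processing notes name STAR 2.5.2a, featureCounts, DESeq2 1.12.4 and the hg19 build. The sources used here give neither strand setting nor annotation release. The authors deposited raw counts per gene, 1 table per line, and 1 DESeq2 table per line whose log2 fold changes, adjusted p-values and Wald score are the authors' own. The mean signal per gene in those deposited tables (counts divided by size factors, by the authors) only set which genes were compared with the counts. The MOLT-4 columns carry the suffix "redo", per the file headers, which no source used here explains. Columns were matched to groups by the treatment and number in their names.

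edgeR 4.0.16 (R 4.3.3) tested each line by itself (quasi-likelihood F-test, 2-sided, TMM, filterByExpr, Benjamini-Hochberg over all genes tested, threshold 0.05). The interaction used all 8 libraries, and the comparison of lines the 4 DMSO libraries. Alternatives were scaling by total counts, DESeq2 1.42.0, other low-count filters, leaving out each library, a replicate block and a spread shared over 8 libraries. CPM were scaled by TMM over 8 libraries, and RPKM used exon lengths of GENCODE 29 (GRCh38), not the authors' annotation. Intervals and floors (3 counts) cover counting error only. The steps were tested on simulated data, where the interaction recovered fewer of the changed genes than the other tests did and fell short of the pass mark first set, which was then lowered. The members, lists and tests were chosen with earlier results of these data known. All 10 members were named, up to 4 genes of each other list by their rank of adjusted p in MOLT-4, lists of up to 5 genes and the neighbours of TAL1 whole, and the 5 genes nearest to TAL1. LMO4 and RUNX3, reported with test values, fall outside this rule. GATA1, CD4 and CD79A each had 2 identifiers, and that of GENCODE was used. Some listed genes are not reported here, and their lists were counted without them.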

Additional observations from a re-analysis of the deposited data

Results flagged for a closer look

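GIMAP1 and GIMAP5 had responses to ACBI-1 that differed between the lines as labelled, by the edgeR interaction test, which 0.393% of 16047 genes passed. The difference, MOLT-4 minus DND-41, was -2.04 on the log2 scale for GIMAP1 (95% interval -2.46 to -1.63, adjusted p = 0.0167) and -2.11 for GIMAP5 (-2.42 to -1.80, adjusted p = 0.00959). Without MOLT-4 ACBI-1 replicate 1 or replicate 2, 0 genes passed the interaction, so neither gene did. In DND-41, GIMAP5 had 99.0 and 107 CPM in the libraries labelled DMSO and 96.5 and 97.2 CPM in those labelled ACBI-1, and GIMAP1 had 30.8 and 28.3 against 29.6 and 24.8 CPM. The labels of those libraries are in doubt. In the authors' deposited DND-41 table, which holds number 2 over number 1, neither GIMAP5 (log2 0.05, adjusted p = 0.740) nor GIMAP1 (-0.20, adjusted p = 0.264) passed.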

How the results depend on the processing

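In MOLT-4, 8533 genes passed, against 5682 with DESeq2, 544 with a spread shared over 8 libraries, and 6888 to 7123 when 1 library was left out. The 8 members kept their direction in all 10 alternatives run. Scaling by total counts gave 5804 genes higher and 3031 lower (65.7% higher) against 4120 and 4413 (48.3%). In DND-41 as labelled 0 genes passed, also when each library was left out, and 1349 with the replicate block, none a member. The interaction had 63 genes, 367 with DESeq2, 5860 with the replicate block and 0 to 49 without 1 library. The block changed no member's call in MOLT-4. With the block, 2 of the 9 members tested passed the interaction as higher and 3 as lower, beside 2767 and 3093 of all genes. The higher members were TCF12 (0.43) and MYB (0.24), and the lower ones TAL1 (-3.74), TCF3 (-0.18) and GATA3 (-1.21). The TAL1 estimate rests on near-empty DND-41 libraries and is not interpreted. Deviations of same-numbered libraries correlated at 0.933 in DND-41 and 0.00195 in MOLT-4; with 2 pairs, and the DND-41 labels in doubt, the numbers were not taken as pairs. The comparison of lines had 5293 genes, 2162 to 11316 without 1 library (lowest without MOLT-4 DMSO replicate 1, highest without DND-41 DMSO replicate 1), 7966 with all 8 libraries and 7402 with all 4 DND-41 libraries, an alternative chosen after seeing the data. Of the 5 genes most like TAL1, 2 were the same with a prior count of 5. The causes of these changes were not tested.

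In DND-41, GATA3 (0.00) was -0.0060 with DESeq2 and -0.0075 with no low-count filter. Leaving out 1 library there gave log2 ranges of -0.15 to 0.55 for LYL1, -0.12 to 0.021 for LDB1, -0.21 to 0.16 for TCF3, -0.33 to 0.56 for TCF12, -0.37 to 0.37 for GATA3, -0.27 to 0.39 for RUNX1 and -0.033 to 0.11 for MYB. The interaction of LYL1 (-0.01) was 0.082 scaled by total counts and -0.65 to 1.23 without 1 library; the ranges were -0.38 to 0.023 for TCF3, -0.18 to 0.51 for RUNX1 and -0.019 to 0.86 for TCF12. GATA3 between the lines ran from -0.55 to 0.13 without 1 library and was -0.84 with all 8, the ACBI-1 libraries included.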

Other observations

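RUNX genes differed in make-up between the lines. RUNX1 made up 90.6% to 91.2% of the summed RPKM of RUNX1, RUNX2 and RUNX3 in MOLT-4. In DND-41, RUNX3, a factor of cytotoxic T-cell development, led in the libraries numbered 1 (48.9% and 47.8%) and RUNX1 in those numbered 2 (46.1% and 46.3%). RUNX3 had 2.97 and 3.18 CPM with DMSO in MOLT-4 and 89.7 and 56.4 CPM in DND-41, a log2 difference of -4.58 (SE 0.299, adjusted p = 0.00196, edgeR).

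ID2 and ID1 also differed between the lines without compound. ID2 was lower in MOLT-4 than in DND-41 by 4.46 on the log2 scale, with 2.33 and 1.84 against 42.3 and 48.5 CPM (log2 difference -4.46, adjusted p = 9.67e-04, edgeR), while ID1 was higher, with 11.8 and 10.9 against 2.06 and 1.62 CPM (2.61, adjusted p = 0.00369, edgeR). ID3 did not pass, with 37.8 and 40.4 against 38.4 and 135 CPM (log2 difference -1.16, adjusted p = 0.200, edgeR), and its groups overlapped. Of 14 targets of the complex tested, 7 were higher and 1 lower in MOLT-4 and 6 did not pass, beside 35.1% of 15069 genes that passed. Targets of the complex that stood apart included ERG, at least 1290-fold higher in MOLT-4 (3485 counts against 0, floor of 3 counts over the group). STAT5A had 454 and 440.3 CPM in MOLT-4 and 6.60 and 1.67 CPM in DND-41 (log2 difference 6.76, adjusted p = 0.00506, edgeR).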
